A study of Lactuca sativa with 18 samples.

Results

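The genes described here stood low in freshly cut midribs of the romaine lettuce cultivar Parris Island Cos and higher in each of the 10 other day 0 and day 3 libraries. They are 150 of the 46150 GeneIDs in the files. Counts were scaled to CPM, the usual per-million unit, on the library total and set on a log2(CPM+1) scale. GeneIDs were kept where the mean changed by less than 1 from day 0 to day 3 in both other cultivars, which left 39774. The score of a gene was its lowest level in the other 10 libraries minus its highest level in the 2 Parris Island Cos day 0 libraries, and the 150 highest scores were taken. The genes were thus chosen by their measured levels in all 12 libraries. The low level in Parris Island Cos on day 0 is what defines these genes and is described without a test.

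The study compared leaf midribs of Lactuca sativa from 3 cultivars: Parris Island Cos (PC), which browns little after cutting, Tall Guzmaine (TG), which browns strongly, and Clemente (CL), which browns to a medium degree and descends from a cross between the other cultivars. Midribs were cut by hand and kept cold, and pieces were frozen on day 0, 2 or 3. Heads had already spent days under refrigeration before cutting, so day 0 is the day of cutting and not of harvest. Each combination of cultivar and day had 2 libraries. Whether the 2 came from different heads is not stated in the labels. The p-values therefore reflect the spread between libraries alone, and this may be technical. Every sample was cut, and the time since cutting cannot be told apart from the time in the cold. In such bulk tissue, fewer cells of a type and less RNA per cell cannot be told apart either. The deposited day 2 columns could be computed from day 0 and day 3 and are not an independent measurement.

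Cut lettuce turns brown when phenolic compounds are oxidised. Phenylalanine ammonia-lyase opens the pathway that makes these compounds, and polyphenol oxidases and peroxidases oxidise them once cutting has broken the compartments that kept enzyme and substrate apart. The midrib is rich in vascular tissue and poorer in chlorophyll than the leaf blade. The name table used here gives no description of any lettuce gene, so none of the genes below is assigned a role. For the same reason the labelled tissue was not checked against marker genes.

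Library totals were 35603537 to 59153901 counts. The PC day 0 libraries held 38580802 and 35603537 counts, and libraries of similar depth with high levels of these genes were PC day 3 replicate 2, with 37840518, and CL day 3 replicate 2, with 35739638. The 100 most abundant genes took 19.0% to 24.3% of the counts, with both PC day 0 libraries inside this range. TMM scaling factors, which correct for such differences in composition, were 1.12 and 1.17 in PC day 0, 0.780 and 0.794 in CL day 0 and 0.977 to 1.10 in the other groups. Levels below are CPM on the TMM-scaled library size.

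Summed over the 150 genes, their share of all counts was 0.421% in PC day 0 replicate 1 and 0.171% in replicate 2. It was 2.67% and 2.55% in the PC day 3 libraries, between 2.63% and 3.11% in the 4 TG libraries and between 3.53% and 4.92% in the 4 CL libraries. Fresh PC lay far below all other libraries in the total, as the rule sets, and CL lay above TG and above PC on day 3. The total is weighted to the most abundant genes. Their means over the other 10 libraries reached 6854 CPM, against a median of 57.5 CPM over the 150 genes.

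**Figure D1:**
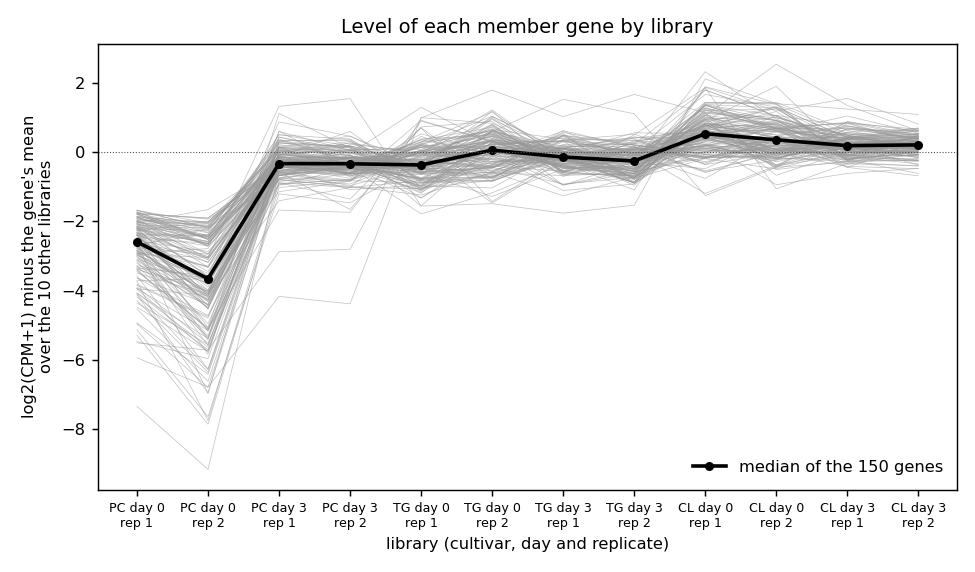
Level of each of the 150 genes in the 12 libraries, as log2(CPM+1) on TMM-scaled library size minus the gene's own mean over the 10 libraries other than PC day 0. Thin lines are genes and the thick line is their median; the drop in the 2 PC day 0 libraries is set by the choice of genes.

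The gene with the highest score was LOC111919126, at 5.69. In PC it stood at 3.89 and 0.385 CPM on day 0 and at 529 and 252 CPM on day 3. Both TG libraries were high, at 1317 and 1473 CPM on day 0 and at 541 and 1125 CPM on day 3, and in CL at 2890.4 and 380.1 CPM on day 0 and at 635 and 900 CPM on day 3. Its PC day 3 mean was 182 times the PC day 0 mean, and the day 0 means of TG and CL were 652 and 764 times that of PC. The 2 CL day 0 libraries were the highest and the second lowest of the 10 high libraries, and PC day 3 replicate 2 was the lowest.

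LOC111908911 followed with a score of 4.24. It stood at 9.55 and 0.771 CPM in PC on day 0 and at 202 and 232 CPM on day 3. TG held 222 and 256 CPM on day 0 and 354 and 485 CPM on day 3, and CL held 1431 and 848 CPM on day 0 and 502 and 485 CPM on day 3. Here both CL day 0 libraries lay above every other library, and PC on day 3 was close to TG on day 0.

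The most abundant of the genes was LOC111921786. Its level was 381 and 52.1 CPM in PC on day 0 and 5044 and 5568 CPM on day 3. In TG it was 5773 and 4616 CPM on day 0 and 6320.2 and 7161 CPM on day 3, and in CL 11333.5 and 9321 CPM on day 0 and 5929 and 7479 CPM on day 3. Neither PC day 0 library came near the others in this gene. It is 1 of 9 genes with a mean of at least 1000 CPM over the other 10 libraries. LOC111888858 is among them, with 37.3 and 5.71 CPM in PC on day 0 and 582 and 486 CPM on day 3. It reached 6730.2 and 2612 CPM in CL on day 0, 1490 and 1948 CPM in CL on day 3, 1071 and 1581 CPM in TG on day 0 and 692 and 1105 CPM in TG on day 3. Also in this class, LOC111913769 went from 147 and 69.1 CPM in PC on day 0 to 1212 and 1058 CPM on day 3, LOC111887859 from 178 and 32.8 CPM to 1126 and 1078 CPM, and LOC111886429 from 387 and 158 CPM to 1640 and 1779 CPM.

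Most of the other genes with the highest 20 scores were less abundant, with LOC111898986, at a mean of 1073 CPM over the other 10 libraries, as an exception. LOC111913134 stood at 1.02 and 0.433 CPM in PC on day 0 and between 39.2 and 165 CPM in the other 10 libraries. LOC111895741 stood at 2.92 and 0.0963 CPM against 85.1 to 239 CPM, and LOC111886314 at 2.46 and 0.241 CPM against 57.0 to 244 CPM. In all of these genes the 2 PC day 0 libraries are the lowest, as the rule demands. LOC111894747, LOC111910854, LOC111887371, LOC111898139, LOC111920811, LOC111919529, LOC111889216, LOC111912008, LOC111891048, LOC111915479 and LOC111903544 complete the 20.

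**Figure D2:**
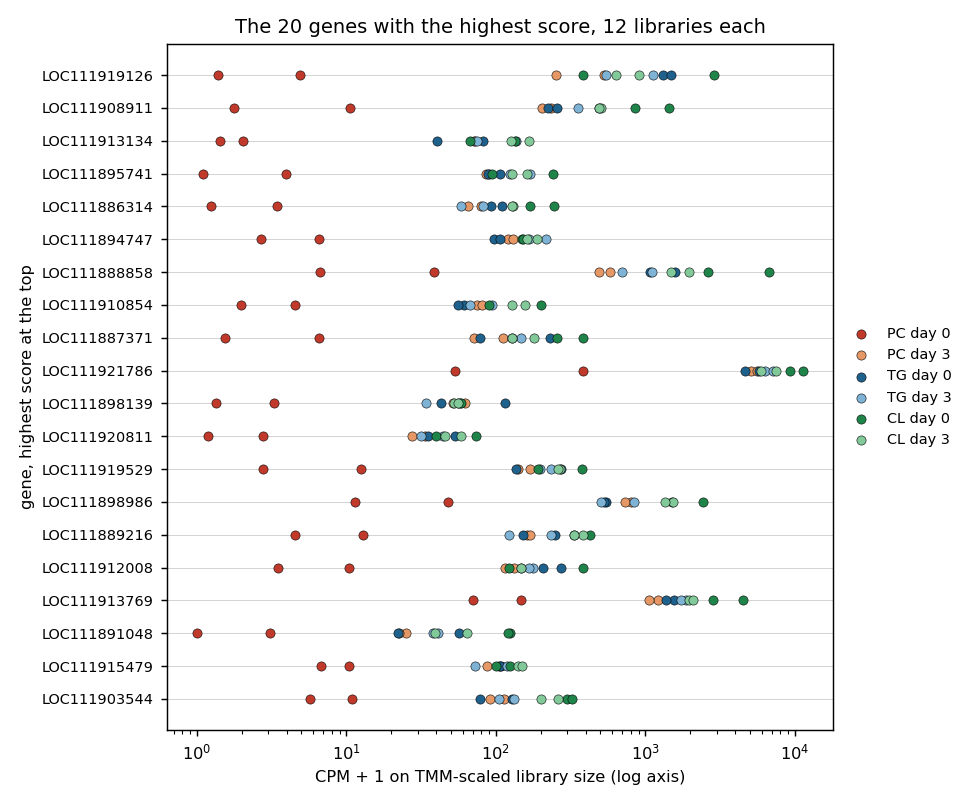
CPM + 1 on TMM-scaled library size (log axis) of the 20 genes with the highest score, with 1 point for each of the 12 libraries, coloured by cultivar and day. For LOC111921786 the PC day 0 points lie at 381 and 52.1 CPM and the others between 4616 and 11333.5 CPM.

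Over all 150 genes the mean of the 10 high libraries ran from 3.05 to 6854 CPM, with a median of 57.5 CPM against 7.94 CPM over the 21757 genes tested. Of the 150, 9 had a mean of at least 1000 CPM, 47 of 100 to under 1000, 75 of 10 to under 100 and 19 under 10. The score itself ran from 1.10 to 5.69 with a median of 1.58, and 16 genes had a score of at least 3. The last genes inside were LOC111910037, LOC111875850 and LOC111886609, with scores of 1.107, 1.105 and 1.102. The first outside were LOC111892643, LOC111920383 and LOC111914500, with scores of 1.101, 1.099 and 1.097, so the set has no edge there. All 150 passed the filter on low counts of the tests below. In 3 genes, LOC111902711, LOC111886482 and LOC111914156, both PC day 0 libraries had 0 counts. Against a floor of 3 counts per library, the PC day 3 means of these genes were at least 50.3-fold, 44.6-fold and 40.4-fold higher. Floors cover counting error only.

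In edgeR's quasi-likelihood fit, every one of the 150 was higher in PC on day 3 than on day 0, in TG than in PC on day 0 and in CL than in PC on day 0. Over all tested genes these comparisons called 39.6%, 30.4% and 45.8%, made up of 21.5%, 17.2% and 23.8% in this direction and 18.1%, 13.1% and 21.9% in the other. Since the rule used the same contrasts, nothing is read from these counts. The fitted log2 fold changes had a median of 3.27 for PC day 3 against day 0 and a lowest value of 1.40. No highest value is given, since the 3 genes at 0 counts have no measured fold; their bounds lie above the median. The median was 3.35 for TG against PC on day 0 and 4.10 for CL against PC on day 0. Within TG and CL the rule capped the storage change. There 3 genes rose and 5 fell from day 0 to day 3 in TG, where 13.6% and 13.8% of tested genes did so and 27.4% in all. In CL 0 rose and 9 fell, where 16.5% and 15.5% did so and 32% in all. There 19 genes had an unadjusted p under 0.05 in edgeR. No share over all tested genes is given at that cutoff, so nothing is read from the 19.

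The 2 PC day 0 libraries differed from each other in these genes. Replicate 1 stood above replicate 2 in 141 of the 150 genes, replicate 2 above replicate 1 in 6, and both were at 0 in 3. Over all tested genes replicate 1 stood above replicate 2 in 49.8%. Relative to the mean of the other 10 libraries, replicate 1 had a median level of 11.1%, with quartiles of 6.19% and 18.4%, and replicate 2 of 3.66%, with quartiles of 1.02% and 11.0%. In the 137 genes with counts in both, the median ratio of replicate 1 to replicate 2 was 2.50, and it was at least 5 in 31 genes.

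The rule takes the higher of these 2 libraries and does not say which that should be. The median absolute difference between replicates, on the log2(CPM+1) scale, was 0.86 over the 150 genes in PC day 0 and 0.26 over all tested genes. In the other groups it was 0.19 to 0.52 over the 150 genes, with the largest value in TG day 0. There replicate 1 was the lower library in most genes, above replicate 2 in 41 of 150. A cause of the difference in PC day 0 was not tested.

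The 5 genes with the widest gap show how far the 2 libraries stood apart. LOC111914136 stood at 34.1 and 1.16 CPM in PC day 0, against 181 to 758 CPM elsewhere, and LOC111895648 at 117 and 4.86 CPM against 320 to 1256 CPM. LOC111914663 stood at 7.05 and 0.193 CPM, LOC111891197 at 8.85 and 0.289 CPM, and LOC111900202 at 23.5 and 2.50 CPM. In each, replicate 1 was the higher library and still lay below all other libraries of the gene.

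**Figure D3:**
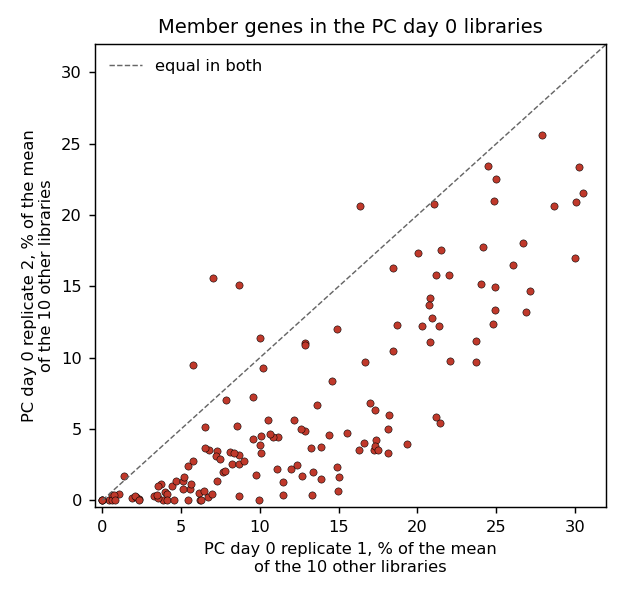
Level of each of the 150 genes in PC day 0 replicate 1 (x axis) and replicate 2 (y axis), as a percentage of the gene's mean CPM over the other 10 libraries, 1 point per gene. Points under the dashed line of equality, 141 of 150, are genes lower in replicate 2.

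PC was compared with TG and CL on day 3. The rule did not use the difference between these groups, but it did use their levels: PC day 3 is among the 10 libraries whose lowest level enters the score. How far PC day 3 could lie below TG and CL is thereby limited, and the values below are read with that limit. PC day 3 was within 2-fold of TG day 3 in 134 of the 150 genes and within 2-fold of CL day 3 in 125, where 83% and 82.9% of all tested genes were. In edgeR's quasi-likelihood test, adjusted by Benjamini-Hochberg over all tested genes, 2 of the 150 genes, or 1.33%, differed between TG and PC on day 3. Both were higher in TG. Over all tested genes 1.45% were called, 0.722% higher and 0.731% lower, so the share among the 150 is near the background. CL against PC on day 3 gave the same 2 genes, both higher in CL, with 0.915% called over all tested genes, 0.515% higher and 0.4% lower. In the other 148 genes a difference was not shown. This is not evidence that their levels were equal, since the median standard error of the log2 fold change over the 150 genes was 0.43 in both comparisons.

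These 2 genes go against the description of being low in fresh PC alone. LOC111901911 stood at 4.17 and 1.88 CPM in PC on day 0 and only at 16.7 and 14.2 CPM on day 3. TG held 631 and 1101 CPM on day 0 and 646 and 1009 CPM on day 3, and CL held 703 and 598 CPM on day 0 and 410.0 and 488 CPM on day 3. All 4 PC libraries lay far below all 8 others. On day 3 the log2 fold change was 5.74 in TG against PC (SE 0.45, adjusted p = 0.000222, edgeR) and 4.86 in CL against PC (SE 0.43, adjusted p = 0.000579, edgeR).

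GeneID_111902482, which has no entry in the name table, was also lowest in PC on both days, with CL above TG where LOC111901911 had TG above CL. It stood at 0.603 and 0.385 CPM in PC on day 0 and at 8.95 and 9.46 CPM on day 3. TG held 145 and 130 CPM on day 0 and 68.9 and 74.7 CPM on day 3, and CL held 231 and 180 CPM on day 0 and 96.2 and 99.3 CPM on day 3. Again no PC library overlapped the others. The log2 fold change on day 3 was 2.96 in TG against PC (SE 0.20, adjusted p = 7.2e-05, edgeR) and 3.41 in CL against PC (SE 0.20, adjusted p = 4.89e-05, edgeR). Both genes were called against PC on day 3 under every alternative fit that was run.

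In 8 genes, chosen after their values were seen, the PC day 3 mean was at or below 0.5 times both the TG and the CL mean of that day. Besides the 2 above these were GeneID_111906292, LOC111921392, LOC111914136, LOC111885935, LOC111905330 and LOC111900150. GeneID_111906292 stood at 13.5 ± 0.449 CPM in PC, 55.8 ± 7.80 CPM in TG and 53.3 ± 7.31 CPM in CL on day 3 (SD, n = 2). LOC111921392 stood at 22.3 ± 4.37, 67.5 ± 1.54 and 82.1 ± 4.05 CPM in the same order. These 6 did not pass the threshold in the fit of all 12 libraries.

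The spread in PC day 0 entered every test of these genes, because the 6 groups share an estimate of the spread for each gene. In a fit of the other 10 libraries, added after the data had been seen, the median standard error over the 150 genes fell from 0.43 to 0.28 in each of the day 3 comparisons with PC. It then called 8 genes between TG and PC on day 3, 6 higher and 2 lower in TG, with 1.69% of tested genes called. Of the genes added, GeneID_111906292, LOC111904695, LOC111905330 and LOC111887821 were higher in TG, by 2.05, 1.93, 1.11 and 0.88 on the log2 scale. LOC111889537 and LOC111892736 were lower in TG, at log2 fold changes of -1.92 and -1.18. Between CL and PC it called 6, all higher in CL, with 1.43% of tested genes called. Fits of only the 2 groups compared, which estimate the spread from 4 libraries, called 21 and 80 of the genes, with 4.45% and 10.8% of tested genes called.

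Below the threshold for single genes, the day 3 level of PC leaned to the low side of CL. The log2 fold change of CL against PC on day 3 was above 0 in 130 of the 150 genes, with a median of 0.54, while the median over all tested genes was 0.00. The quartiles over the 150 genes were 0.21 and 0.85. Both CL libraries lay above both PC libraries in 114 genes and below in 9, where 26.4% and 25.2% of all tested genes did so. For TG against PC on day 3 the median was 0.09 and 87 genes were above 0. Without TG day 3 replicate 1 the median was 0.01 with 79 genes above 0, and without TG day 3 replicate 2 it was 0.16 with 95. There both TG libraries lay above both PC libraries in 52 genes and below in 28, against 22.8% and 23.8% of all tested genes. The PC day 3 mean lay below the TG and the CL mean in 84 genes, between them in 49 and above both in 17, while the shares over all tested genes were 33.3%, 29.8% and 35.5%. These genes are more abundant than most tested genes, and the part of that in these shares was not tested.

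**Figure D4:**
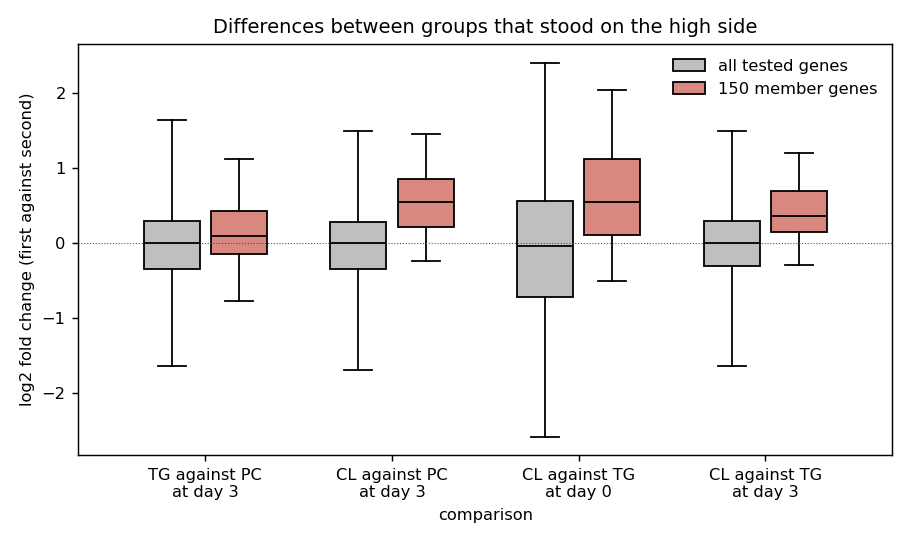
Log2 fold changes (y axis) in the 4 comparisons among groups that stood high, for all 21757 tested genes in grey and the 150 genes in red. Lines inside the boxes are medians, boxes span the middle 50% and whiskers the 5th to 95th percentile; the medians over the 150 genes are 0.09, 0.54, 0.54 and 0.36 from left to right.

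CL and TG, both high in these genes on both days, were compared with each other. The rule did not use the difference between them, but it used their levels, scaled on library totals. On that scale CL day 0 had the lowest mean outside PC day 0 in 44.7% of all tested genes and in 23 of the 150. The rule thereby limits how low either group could lie. The part of the rule in the direction of the calls below was not tested. On day 0, 23 of the 150 genes were higher in CL and 0 were lower (edgeR's quasi-likelihood test). An unadjusted p under 0.05 was found for 43. No share over all tested genes is given at that cutoff, so nothing is read from the 43. DESeq2 called 37 higher and 1 lower, with 22.7% of all genes it tested called. Over all tested genes edgeR called 21.1%, 10.2% higher and 10.9% lower, and among the 150 genes 15.3%. In this edgeR fit the 150 genes were called in a single direction and all tested genes in both. Some other edgeR fits called genes of the 150 lower in CL, 1 with a replicate block and 3 with no scaling factor. The median log2 fold change over the 150 genes was 0.54 against -0.05 over all tested genes, and 116 genes were above 0. Both CL libraries lay above both TG libraries in 78 genes and below in 4, against 27.9% and 30.2% of all tested genes. The fit without PC day 0 called 55 higher and 2 lower, among them all 23, with 25.4% of tested genes called. The 2 lower in CL were LOC111904695 and LOC111895468. Without a scaling factor the median over all tested genes moved to -0.37 and that over the 150 genes to 0.22. That fit called 17 of the 150 genes higher and 3 lower, with 27.6% of all tested genes called.

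On day 3 edgeR called 0 of the 150 genes between CL and TG, with 0.786% called over all tested genes, 0.533% higher and 0.253% lower. The lowest adjusted p among them was 0.0556. An unadjusted p under 0.05 was found for 21 genes, DESeq2 called 5 higher and 1 lower, with 2.51% of all genes it tested called. The fit without PC day 0 called 4 higher and 1 lower, with 1.34%, and a fit of only those 2 groups called 18 higher and 1 lower, with 3.87%. The median log2 fold change over the 150 genes was 0.36, with 120 genes above 0, and it was 0.00 over all tested genes. Both CL libraries lay above both TG libraries in 90 genes and below in 12, against 23.6% and 23.1% of all tested genes. The difference between the day 0 and the day 3 contrast, tested itself, passed the threshold in 0 genes, with 0.984% of tested genes called, 0.565% higher and 0.418% lower. Its lowest adjusted p was 0.0575 (edgeR), and 8 genes had an unadjusted p under 0.05. No share over all tested genes is given at the unadjusted cutoff, so nothing is read from these 8 or the 21 above. The rule capped the storage change in TG and in CL, which bounded this difference in advance. Nothing is therefore read from the count of calls. Over both days all 4 CL libraries lay above all 4 TG libraries in 37 genes and below in 1, where 4.74% and 4.36% of all tested genes did so. The same cap limits how much a gap between CL and TG could change between days, and all tested genes were not capped.

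The widest of these differences was in LOC111889537. TG held 25.6 and 26.9 CPM on day 0 and 22.1 and 26.1 CPM on day 3, and CL held 339 and 206 CPM on day 0 and 185 and 166 CPM on day 3. PC moved from 4.08 and 0.433 CPM on day 0 to 96.7 and 85.4 CPM on day 3, between TG and CL. CL lay above TG in every library, and the log2 fold change on day 0 was 3.38 (SE 0.67, adjusted p = 0.00767, edgeR). Without TG day 0 replicate 1 or 2 the adjusted p was 0.0589 or 0.0570.

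LOC111879077 was a gene of lower level with a like order. TG held 4.11 and 6.80 CPM on day 0 and 13.0 and 7.26 CPM on day 3, and CL held 63.5 and 39.1 CPM on day 0 and 50.7 and 29.8 CPM on day 3. PC day 0 held 6 counts in replicate 1 and 0 in replicate 2, and PC day 3 stood at 10.3 and 12.1 CPM, in the range of TG. The log2 fold change of CL against TG on day 0 was 3.23 (SE 0.51, adjusted p = 0.00271, edgeR).

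The call with the smallest adjusted p was LOC111878060, at 327 CPM in both CL libraries and 60.8 and 58.1 CPM in TG on day 0 (log2 difference 2.46, SE 0.28, adjusted p = 0.000568, edgeR). On day 3 it stood at 186 and 141 CPM in CL and 130 and 70.1 CPM in TG. LOC111920678 and LOC111920814 were also higher in CL on day 0, by 3.22 (SE 0.72) and 2.21 (SE 0.61) on the log2 scale. LOC111920678 lost its call when TG day 0 replicate 1 (adjusted p = 0.0817, edgeR) or CL day 0 replicate 2 (adjusted p = 0.0833, edgeR) was left out. LOC111920814 lost its call when certain single libraries were left out, TG day 0 replicate 2 among them. Over all fits without a single library, with or without the call, its log2 fold change ran from 1.65 to 3.13. The call was also lost with no filter on low counts (adjusted p = 0.0963, edgeR) and in the fit of only the 2 groups (adjusted p = 0.0509, edgeR). The 23 genes were picked for their day 0 difference, so their smaller median of 0.70 on day 3, against 1.60 on day 0, is partly set by that choice. In all 23 the CL mean was above the TG mean on day 3 as well, and in 14 of them all 4 CL libraries lay above all 4 TG libraries. The rule's cap on the storage change in TG and in CL favours this, so day 3 is not an independent check of day 0.

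**Figure D5:**
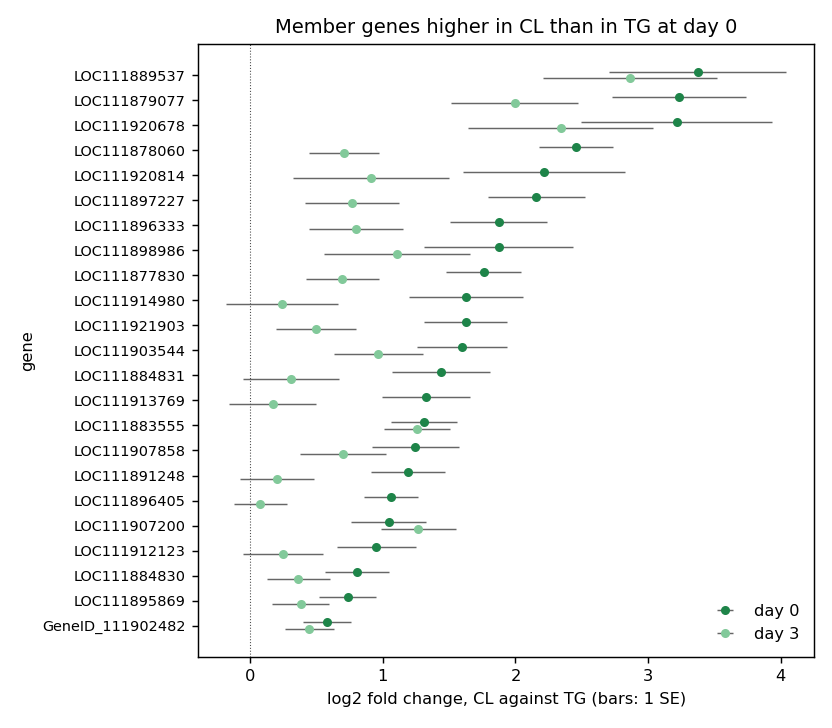
Log2 fold change of CL against TG (x axis) on day 0 and day 3 for the 23 genes called higher in CL on day 0, with bars of 1 SE from the fit of 12 libraries. LOC111889537 is at 3.38 on day 0 and 2.86 on day 3, and the day 3 values were not past the threshold.

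Among the 5 groups that stood high, CL day 0 had the highest mean in 83 of the 150 genes on the TMM scale and PC day 3 the lowest in 60, where 25.5% and 19.5% of all tested genes did so. On the scale of library totals these were 50 and 46 genes, where 14.3% and 12.1% of all tested genes did so. On that scale TG day 0 was the lowest in 46 genes too, and CL day 3 was the highest in 43. Over all tested genes these shares were 19.7% and 10.1%. For CL day 0 as the highest and PC day 3 as the lowest, the scaling moved the 150 genes and all tested genes the same way. For TG day 0 as the lowest and CL day 3 as the highest they moved in opposite ways. On the TMM scale these were 42 and 30 genes, against 24.2% and 12.4% of all tested genes. The ratio of the highest to the lowest of the 10 high libraries had a median of 3.26 and was under 2 in 13 genes and above 5 in 25.

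The rule used no annotation. Of the 150 genes, 146 had an entry in the RefSeq name table of assembly Lsat_Salinas_v11, all with locus symbols only. Among them 143 were protein-coding, 2 were pseudogenes and 1 was a long noncoding RNA, while 92% of the matched tested genes were protein-coding. The median span of the protein-coding genes was 1929 bases against 2491 over protein-coding tested genes, and 4.2% against 12.6% had more than 1 annotated transcript.

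Some of the genes were neighbours. With at most 9 other annotated genes between them, 11 pairs were found, which involve 20 genes. No share over all tested genes is given beside this, so nothing is read from the number of pairs. LOC111875850 and LOC111875849 had no gene between them. LOC111921785 stood 1 gene away from the abundant LOC111921786, at a mean of 30.9 CPM over the 10 high libraries against 6854 CPM. LOC111887795, LOC111887819 and LOC111887859 formed a run of 3, at means of 57.6, 174 and 1480 CPM, and LOC111895439, LOC111884830 and LOC111884831 another, at 35.5, 17.7 and 13.0 CPM. LOC111890987 and LOC111891048, with 2 genes between them, had means of 47.4 and 54.4 CPM. Reads shared between near-identical copies could tie the counts of such neighbours, and the authors' treatment of such reads is not stated in the labels. Whether these neighbours are such copies was not tested.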

How the data were processed

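The deposited day 0 and day 3 values are counts per row of NCBI GeneIDs. Per the submitters' processing notes, the tools included featureCounts, STAR 2.4.0i, DESeq2, R 3.6.1, Trim Galore and FastQC, with no roles stated. Build and strandedness: not given in the sources used here. The 64021 rows were summed to 46150 GeneIDs, of which 7574 stood on several rows, 1 of the 150 genes among them. Between 68.4% and 74.6% of values of 100 or more were even, as when both mates of a pair are counted, so fragments may be fewer than counts.

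Deposited day 2 values entered neither the score nor any test. Rows with a day 0 and day 3 mean of at least 100 were checked. Of these, 98.9% to 99.8% lay within 1 count of a scaled mean of those days, as did every such row of the 150 genes.

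With edgeR 4.0.16 (R 4.3.3), filterByExpr left 21757 genes. A robust quasi-likelihood model with TMM factors and 6 group means over 12 libraries gave all contrasts, with Benjamini-Hochberg adjustment at 0.05. Standard errors (SE) were derived from the log2 fold change and F. The same code was tested on simulated counts. DESeq2 1.42.0, other scalings, no filter, a replicate block, fits of 2 groups and each library left out were alternatives. Genes named are those with the 20 highest scores, 3 on each side of the limit, up to 5 called per contrast and direction, the 5 most abundant and the 5 with the widest gap in PC day 0. Genes at 0 counts, those at or below 0.5 times both cultivars on day 3, neighbours and genes called only without PC day 0 were named after their values were seen. Members and lists were chosen with earlier results of these data known. The 22 lists of gene functions and 7 promoter motifs planned were not run, since the name table holds no descriptions or sequences.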

Additional observations from a re-analysis of the deposited data

How the results depend on the processing

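Shared members of the set under other rules: 62 of 150 remained with a limit of 0.5 on the change in TG and CL and 65 with no limit, while the other settings kept 115 to 149 and leaving out single libraries 106 to 147, the fewest without PC day 0 replicate 1. Genes called in the 4 comparisons (TG against PC on day 3, CL against PC on day 3, CL against TG on day 0, CL against TG on day 3) were 2, 2, 23 and 0. They were 6, 10, 38 and 6 with DESeq2 and 8, 6, 57 and 5 without the PC day 0 group, a setting chosen after seeing the data. Calls over all genes were 1.45%, 0.915%, 21.1% and 0.786% as reported, 3.03%, 2.4%, 22.7% and 2.51% with DESeq2 and 1.69%, 1.43%, 25.4% and 1.34% without that group. In fits of only the 2 groups 21, 80 and 19 were called in the first, second and last. The shares of tested genes called there were 4.45%, 10.8% and 3.87%. The last gave 1 with RLE factors and 2 with no filter on low counts, with 0.846% and 0.99% of tested genes called. Without single libraries the counts ran from 2 to 8, from 2 to 6, from 11 to 55 and from 0 to 5, the highest without either PC day 0 library and 11 without TG day 0 replicate 1. CL against TG on day 0 also fell to 15 without CL day 0 replicate 2, and without either TG day 0 library CL against PC on day 3 gave 4 and CL against TG on day 3 gave 1. The cause was not tested. Correlations of same-numbered deviations between groups were -0.086 to 0.067, so no common shift by replicate number was seen. Whether same-numbered libraries shared a head or a run cannot be told from this. With a replicate block 2, 2, 22 and 0 genes were called, with 1.13%, 0.795%, 19.7% and 0.584% of tested genes called. No median over the 150 genes and no named call followed here changed sign, but for CL against TG on day 0 the genes above 0 went from 116 to 93 with no scaling factor, and calls lower in CL from 0 to 3. With 2 libraries a group, the median SE of 0.43 limits what single genes can show.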
